A study of Mus musculus with 20 samples.

Results

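The 6 genes Myh1, Myh2, Myh3, Myh4, Myh7 and Myh8 encode the sarcomeric myosin heavy chains that set the fibre types of limb muscle. Their probes were taken by gene name from 1-colour mouse expression arrays, which gave 16 of 41174 probes and 6 of 27376 gene names. The RNA was of 10 male C57Bl6 mice, with an array for the EDL (extensor digitorum longus) of each leg, a hindlimb muscle of mainly fast fibres. At 8 weeks of age the mice received recombinant adeno-associated virus, serotype 6, at 30 µL per injection, in a way that targeted the soleus and the EDL. The right leg received vectors for D832N HDAC4 and D861N HDAC5, written dnHDAC4/5 below, at 2.5e+10 vector genomes of each, and the left leg of the same animal received an empty vector. After 4 weeks each animal was injected intraperitoneally with Scriptaid, a hydroxamate inhibitor of histone deacetylases, or with vehicle, which was DMSO in PBS. The 4 groups of 5 arrays were HS (dnHDAC4/5 and Scriptaid), HV (dnHDAC4/5 and vehicle), ES (empty vector and Scriptaid) and EV (empty vector and vehicle). Every group thus carried a virus and received an injection, and no untouched leg was among them. The labels give neither the dose of Scriptaid nor the time to collection, and the native Hdac4 and Hdac5 probes do not check the vectors. The titles of the ES samples name vehicle, but their treatment, description and animal number name Scriptaid and were followed.

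Myosin heavy chain is the motor protein of the thick filament, and the isoform that a fibre makes sets how fast it shortens. Myh7 marks slow fibres, while Myh2, Myh1 and Myh4 mark the fast types IIA, IIX and IIB. Myh3 and Myh8 are the embryonic and perinatal forms, made by developing fibres and again by regenerating ones. An adult mouse EDL is built mainly of fast fibres, and the soleus beside it holds many slow ones. Class IIa histone deacetylases such as HDAC4 and HDAC5 bind MEF2 factors and repress their target genes, which include slow-fibre genes in mice. The design asks what a dominant-negative block of HDAC4 and HDAC5, and a drug against histone deacetylases, do to muscle transcripts.

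The myosin genes lie in a cluster on chromosome 11, except Myh7 on chromosome 14, and their sequences are alike. Probes of Myh3, Myh8 and Myh1 are therefore shown with the bases that they share. The Myh7 probes, not shown, share 55 bases. The Myh3 probes overlap by 32 bases of the same transcript, in capitals, so they are not independent of each other.
Myh3 A_51_P167668: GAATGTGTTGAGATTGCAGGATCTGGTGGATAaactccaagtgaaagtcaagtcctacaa
Myh3 A_52_P247953: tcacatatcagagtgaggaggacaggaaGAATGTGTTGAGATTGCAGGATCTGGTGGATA
The longest run shared between probes of different genes had 19 bases, in capitals below, and joins a probe of Myh8 with a probe of Myh1. Both of these probes were saturated on every array.
Myh8 A_51_P143296: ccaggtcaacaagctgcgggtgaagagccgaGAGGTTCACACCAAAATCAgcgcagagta
Myh1 A_51_P192042: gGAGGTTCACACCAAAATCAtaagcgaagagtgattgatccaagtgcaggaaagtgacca
Another probe to the same Myh8 transcript, which shares no such run, was not well above background on any of the 20 arrays.
Myh8 A_52_P224283: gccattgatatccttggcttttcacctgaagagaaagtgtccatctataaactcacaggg
The sequences are those in the scanner files, and only these 2 probes of the whole array hold the run of 19 bases.

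Most probes of the fast isoforms were too bright to be measured. Of the 16 probes, 5 were saturated on all 20 arrays, namely one of Myh1, a pair of Myh2, one of Myh4 and one of Myh8. The second Myh4 probe, A_52_P602147, was saturated on 19 arrays, and the Myh2 probe A_51_P395652 on 5. The remaining Myh8 probes, 3 in number, were not well above background on any array. The scanner wrote at most 65502 per pixel, and the saturated Myh1 probe A_51_P192042 kept a processed intensity between 52494 and 60955 on every array. Its normalised level therefore varied only with the array's own scaling: over the 20 arrays it correlated at r = 0.98 with minus the log2 of the 75th percentile that was subtracted. The same correlation was 0.97 for both Myh2 probes, 0.96 for Myh4 A_51_P338072 and 0.90 for Myh8 A_51_P143296. The processed intensity of that Myh8 probe lay between 63512 and 85576 on the HS arrays and between 57124 and 62812 on all others. All of these spots were saturated, so the ranges are of bounds and are not read as a difference in Myh8. Myh4 A_52_P602147 also had its highest intensities on HS4 and HS5 (119161 and 124623), but its lowest on HS1 (37110). How many other saturated probes part in this way was not counted, and the cause was not tested. No fitted difference between groups is given for the probes saturated on all 20 arrays. The genes whose levels were most like theirs were other saturated ones, such as Cox6a2 and Rps12 for Myh1 (r = 1.00 each), Atp5g3 and Gapdh for Myh2 (r = 1.00 and 0.98), Tnni2 for Myh4 (r = 0.99) and Cox7a1 and Ckm for Myh8 (r = 0.99 and 0.97).

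**Figure D1:**
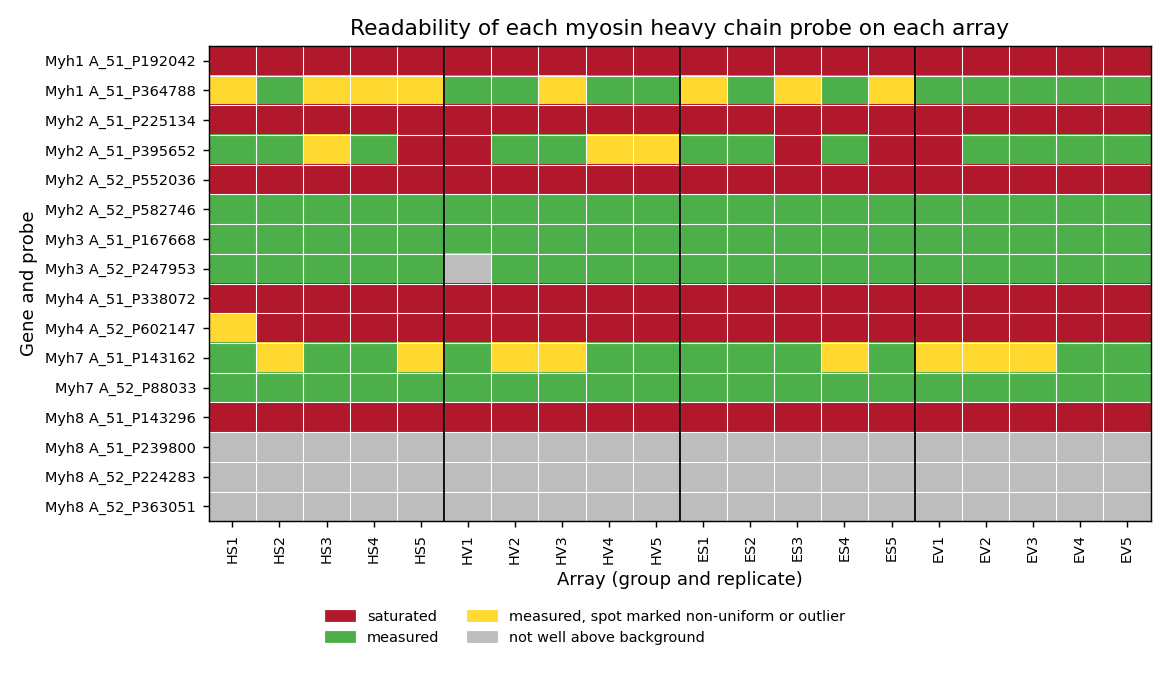
Each row is 1 of the 16 probes and each column 1 of the 20 arrays, grouped as HS, HV, ES and EV. Colours give saturation, a measured value, a measured value on a spot that the scanner software marked, or a signal not well above background. The saturated rows run through all 4 groups, and the Myh3 rows and one Myh7 row are measured almost throughout.

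Myh3, the embryonic heavy chain, was the member that passed a test between groups. Levels are log2 processed intensity minus the array's 75th percentile, so 0 is the level of a spot at that percentile. With probe A_51_P167668, which was well above background on all 20 arrays, the HS legs of replicates 1 to 5 had -1.10, -0.53, -1.85, -1.69 and -0.78. The HV legs had -2.72, -2.01, -1.58, -2.79 and -2.31, the ES legs -1.88, -1.45, -1.45, -1.19 and -1.64, and the EV legs -0.42, -0.91, -0.98, -1.25 and -0.78. The HV legs were thus all below the EV legs, while each of the other pairs of groups that share a vector or an injection overlapped. The group means were -1.19 ± 0.57 in HS, -2.28 ± 0.51 in HV, -1.53 ± 0.26 in ES and -0.87 ± 0.30 in EV (SD, n = 5 each). From highest to lowest the order was EV, HS, ES and HV, and no neighbours in that order were apart: the ranges of EV and HS, of HS and ES, and of ES and HV overlapped.

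Scriptaid in dnHDAC4/5 legs was the comparison in which a member passed the test. Myh3 rose there by 1.09 ± 0.26 on the log2 scale (HS minus HV, SE, 95% interval 0.54 to 1.64, limma adjusted p = 0.0442, n = 5 and 5), and was higher in HS on 4 of 5 slides, where the legs are of different animals. It was the 1 member called of 6, beside 1.28% of all genes called in this comparison in either direction and 0.636% called higher. These shares depend on spots near the array edge: without them 80 of 15048 genes were called, 67 of them higher. Of the 6 members, 4 entered the fit through probes saturated on all 20 arrays. The call rested close to the threshold. It was lost without the spots near the array edge (adjusted p = 0.0719) although the Myh3 probe lies far from the edge and its values are the same in both fits, and it was lost when any of 15 arrays was left out, with an adjusted p up to 0.127. Every setting tried, among them the removal of each array in turn, kept Myh3 higher in HS, by 0.70 to 1.27 on the log2 scale. The overlapping probe A_52_P247953 gave 0.88 ± 0.39 (SE, limma adjusted p = 0.410), with HS3 at -3.52 below 4 of the HV legs.

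In vehicle animals the vector comparison gave the largest difference of Myh3 between 2 groups that share an injection or a vector, and no gene of the whole array was called. Myh3 differed by -1.41 ± 0.26 on the log2 scale, HV minus EV (SE, 95% interval -1.96 to -0.86, unadjusted p = 3.64e-05, limma adjusted p = 0.191), and was lower in the dnHDAC4/5 leg of 5 of 5 animals, with differences from -2.30 to -0.60. The percentage of genes called was 0, with 730 genes at an unadjusted p under 0.05. The groups did not overlap, which held in this direction for 0.292% of all genes measured on every array of both groups. The second probe, at a mean of -2.83 ± 0.65 in HV and -1.38 ± 0.28 in EV (SD, n = 5 each), gave -1.45 ± 0.39 for HV minus EV (SE, limma adjusted p = 0.774), and was lower in 5 of 5 animals and without overlap, with HV1 not well above background.

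In Scriptaid animals the legs did not part in this way. Myh3 was 0.33 ± 0.26 higher in HS than in ES (SE, 95% interval -0.21 to 0.88, limma adjusted p = 0.712), higher in the dnHDAC4/5 leg of 3 animals and lower in that of 2, and no member was called beside 1.24% of all genes. Over both injections the vector difference of Myh3 was -0.54 ± 0.19 (SE, adjusted p = 0.191), with no member called beside 1.09% of genes. In empty-vector legs Myh3 differed by -0.66 ± 0.26, ES minus EV (SE, unadjusted p = 0.0216, limma adjusted p = 1.00), where 0% of genes were called and 602 had an unadjusted p under 0.05. The interaction, which asks whether the vector difference itself differed between Scriptaid and vehicle animals, was 1.75 ± 0.37 for Myh3 (SE, 95% interval 0.97 to 2.53, limma adjusted p = 0.0813). No member was called for it beside 0.178% of genes. With the slide as a random block the adjusted p of the interaction was 0.0378, and without edge spots it was 0.524.

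**Figure D2:**
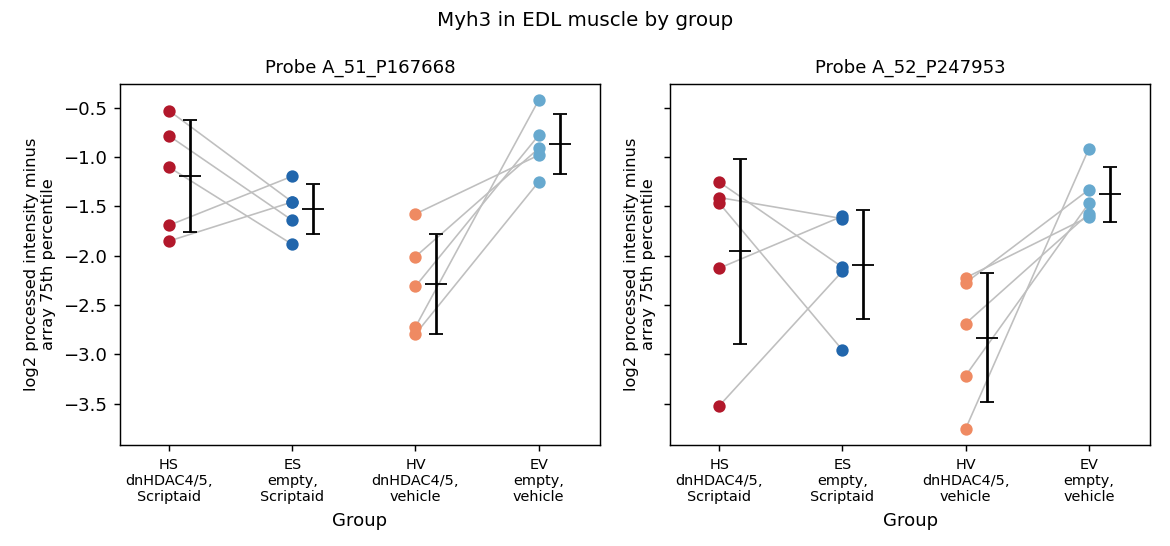
Level of Myh3 (log2 processed intensity minus the array's 75th percentile) in the 4 groups for both probes. Points are legs, grey lines join the legs of an animal, and black bars give the mean and SD of 5 legs. All 5 lines between HV and EV run the same way for both probes, and the lines between HS and ES cross.

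Gene by gene, markers of Schwann cells, adipocytes and red blood cells mostly differed in the same direction as Myh3, without passing the test. Other marker lists went the other way or were mixed. The part of any list in the Myh3 differences was not tested. The slow-fibre genes had 8 of 12 fitted members lower in HV than in EV and 7 of 12 higher in HS than in HV, and their summed level (linear, in multiples of the 75th percentile, over the 9 of 14 genes measured on every array) lay between 12.7 and 28.1 in HV and between 16.1 and 80.5 in EV. All 7 of 7 Schwann cell markers were lower in HV, with a summed level of 6 of them between 1.89 and 4.85 in HV and between 2.83 and 12.6 in EV, and 6 of 7 were higher in HS than in HV. The summed Schwann level in HS was between 3.05 and 7.81. Adipocyte markers were 5 of 5 lower in HV than in EV and 5 of 5 higher in HS than in HV (median differences -0.50 and 1.18). Their summed level lay between 7.33 and 175 in HS, between 2.38 and 58.3 in HV and between 7.31 and 89.3 in EV. HV1 and HV5 lay below the other leg of their animal in this sum (2.38 on HV1 against 89.3 on EV1), and HV2, HV3 and HV4 above it. The median of the sum was 22.2 in HS, 23.1 in HV and 10.9 in EV. Red blood cell markers were 3 of 3 fitted lower in HV than in EV and 3 of 3 higher in HS than in HV (median differences -0.72 and 1.24). The summed level of 2 of them was highest on HS2, at 16.9, against 1.06 to 2.09 on the other HS arrays and 0.494 to 1.62 in HV, and on EV1 it was 11.3, against 0.704 to 1.53 on the other EV arrays. Without HS2, Myh3 differed by 0.93 for HS minus HV (adjusted p = 0.0640, limma). None of these Schwann, adipocyte, red blood cell or slow-fibre genes was called in either comparison. Of all genes, 0% were called for HV minus EV and 1.28% for HS minus HV. Satellite cell markers, which would accompany regeneration, had 2 of 3 fitted members higher in HS than in HV, and their summed level lay between 5.93 and 10.8 in HS, between 6.10 and 10.7 in HV, between 6.15 and 7.35 in ES and between 5.68 and 7.58 in EV. Tendon and fibroblast markers were 5 of 7 higher in HV than in EV and 6 of 7 lower in HS than in HV (median differences 0.20 and -0.73). Of 4 endothelial markers, 3 were higher in HV than in EV. In HS minus HV 3 were lower, 1 of them called, beside 1.28% of all genes. Macrophage markers were 4 of 5 fitted higher in HV than in EV and 3 of 5 higher in HS than in HV. Smooth muscle markers were 2 of 4 higher in each. In whole muscle, fewer fibres that make a transcript and less of it in each fibre cannot be told apart.

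Myh7, the slow heavy chain, varied more between legs of a group than between groups. With probe A_52_P88033 the HS legs of replicates 1 to 5 had 1.19, 4.78, 0.44, 0.34 and 1.49, and the HV legs -0.34, 2.73, 2.72, 1.58 and -0.33. The ES legs had -0.02, 0.47, 0.23, 3.86 and 0.96, and the EV legs 5.56, 5.82, 3.30, -0.35 and 0.71. The highest legs were EV2, EV1, HS2 and ES4, and the EV legs spread over the whole range of the data, 6.17 log2 units. The means were 1.65 ± 1.82 in HS, 1.27 ± 1.54 in HV, 1.10 ± 1.59 in ES and 3.01 ± 2.79 in EV (SD, n = 5 each), so the order EV, HS, HV, ES had no neighbours apart. High and low legs could belong to the same animal: EV1 had 5.56 and HV1, from the other leg of that mouse, had -0.34.

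**Figure D3:**
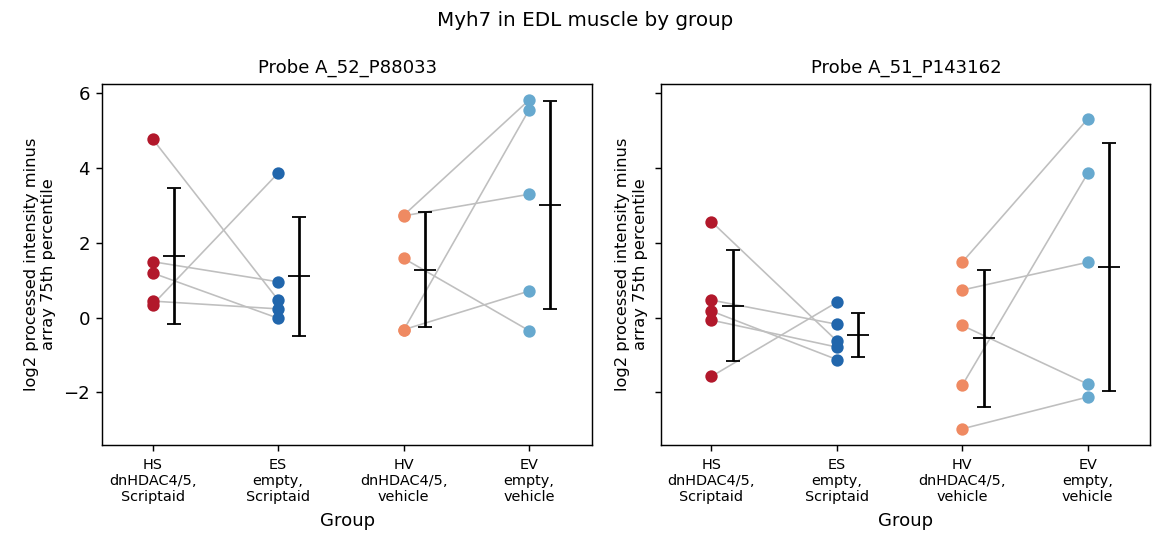
Level of Myh7 (log2 processed intensity minus the array's 75th percentile) in the 4 groups for both probes. Points are legs, grey lines join the legs of an animal, and black bars give the mean and SD of 5 legs. The EV legs span from -0.35 to 5.82 with probe A_52_P88033, and lines between legs cross in both kinds of animal.

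No comparison of Myh7 passed the test, and the intervals were wide. The difference was -1.73 ± 1.18 for HV minus EV (SE, 95% interval -4.20 to 0.74, limma adjusted p = 1.00) and 0.55 ± 1.18 for HS minus ES (95% interval -1.92 to 3.02, adjusted p = 0.928). For Scriptaid it was 0.37 ± 1.18 in dnHDAC4/5 legs (HS minus HV, adjusted p = 0.962) and -1.91 ± 1.18 in empty-vector legs (ES minus EV, limma adjusted p = 1.00). The sign of the differences for HS minus ES and for HS minus HV turned when HS2 was left out, to -0.23 and -0.41. A change of 2 log2 units of Myh7 in either direction lay within the 95% interval of the HS minus HV difference. The second Myh7 probe, A_51_P143162, lies at the array border and had 8 spots marked by the scanner software. It shares 55 of its 60 bases with the first and followed it over the 20 arrays at r = 0.93.

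Levels of Myh7 went with those of slow troponins. The genes whose level was most like that of Myh7 over the arrays were Tnnc1 (r = 0.89), the troponin C of slow and heart muscle, Tnnt1 (r = 0.87, 19 arrays), the slow troponin T, Myh6 (r = 0.87), the alpha heavy chain of heart muscle, and Gpm6b and Wscd2 (r = 0.86 and 0.85). These correlations are over 20 legs of 10 animals that share slides, and are given as descriptions. With the group means removed they were 0.92 for Tnnc1, 0.89 for Tnnt1 and 0.93 for Myh6. Without the arrays of EV1 and EV2, where Myh7 was farthest from its median, they were 0.78, 0.81 and 0.75. Not all slow-fibre genes followed: over the 12 measured, r with Myh7 ran from -0.36 for Casq2 to 0.89 for Tnnc1 with a median of 0.24, and 5 were above 0.5 (Tnnc1, Tnnt1, Atp2a2, Tnni1 and Myl2).

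**Figure D4:**
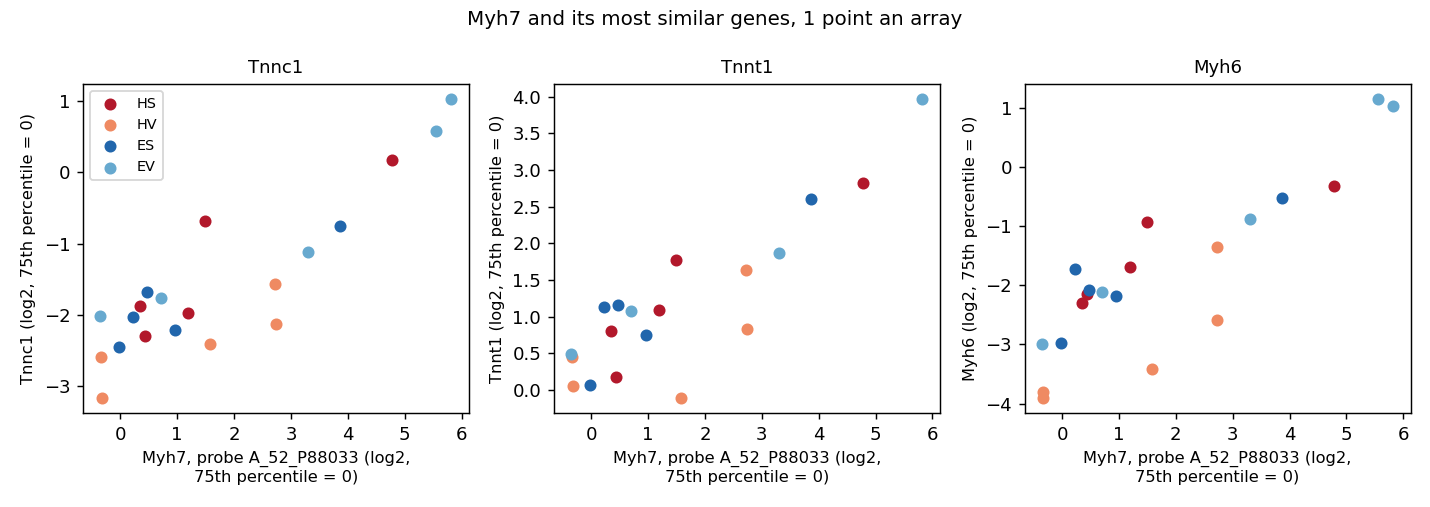
Level of Myh7 (probe A_52_P88033, horizontal) against Tnnc1, Tnnt1 and Myh6 (vertical), all as log2 processed intensity minus the array's 75th percentile, with 1 point for each array coloured by group. The points of all 4 groups run upwards together in the 3 panels, with EV1 and EV2 at the top right for Tnnc1 and Myh6.

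Myh3 shared part of this pattern. Its most similar genes were Myh6 (r = 0.82), Fsd1l and Fam178b (r = 0.78 each), Tnnc1 (r = 0.78) and Pllp (r = 0.77), which encodes plasmolipin, a myelin membrane protein. Myh3 and Myh7 correlated at r = 0.57 over the 20 arrays, at 0.64 with the group means removed and at 0.45 without EV1 and EV2. Tnnc1, like Myh3, had a negative difference for HV minus EV, -1.72 ± 0.58, and a positive one for HS minus HV, 1.04 ± 0.58 (SE, limma adjusted p = 0.811 and 0.561). Myh6 differed by -2.26 ± 0.73 for HV minus EV and by 1.54 ± 0.73 for HS minus HV (SE, limma adjusted p = 0.811 and 0.465), and neither gene passed the test. The heart muscle markers, of which Myh6 is one, were 4 of 4 lower in HV than in EV, but 1 was higher and 3 lower in HS than in HV (median -0.08). Their summed level lay between 0.209 and 0.551 in HV and between 0.379 and 2.48 in EV. The atrial light chain Myl7 of that list was above background on no array.

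The fast isoforms left a few readable probes. Myh1 A_51_P364788 was unsaturated on all arrays but had 8 marked spots, and entered a fit only with these spots kept. Its level ran between 3.38 and 5.38 in HS, between 3.93 and 5.59 in HV, between 4.53 and 5.66 in ES and between 4.27 and 5.75 in EV, with all groups overlapping. Its differences were small beside their spread, from -0.32 ± 0.38 for HS minus ES (95% interval -1.13 to 0.48) to 0.20 ± 0.38 for ES minus EV (95% interval -0.61 to 1.00). The limma adjusted p of those was 0.857 and 1.00 with every probe fitted on its own. Myh2 A_52_P582746, whose transcript has an Ensembl identifier of its own, ran between -2.20 and 0.79 over the 20 arrays. It was 0.42 ± 0.59 higher in HS than in ES and 0.27 ± 0.59 higher in HV than in EV (SE, limma adjusted p = 0.887 and 1.00). The bright Myh2 probe A_51_P395652 had a lower recorded value in ES than in EV on 5 of 5 slides. Its recorded value was higher in HS than in HV on 5 of 5. The probe had 5 marked spots, and was saturated on 1 array of HS, 1 of HV, 2 of ES and 1 of EV, where its values are bounds. Saturation of ES3, ES5 and HV1 leaves the direction unknown on those slides. No test of this probe is given for that reason.

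**Figure D5:**
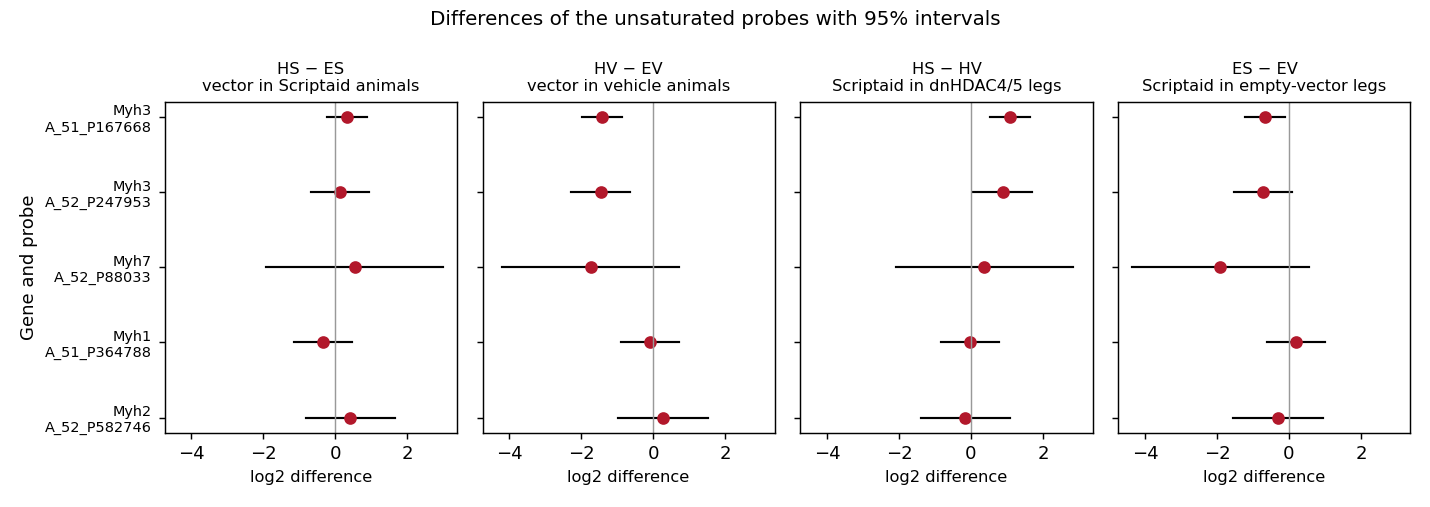
Differences of the 5 probes saturated on no array and well above background on at least 19 (Myh7 A_51_P143162 left out), as log2 of the first group over the second with 95% intervals from limma, every probe fitted on its own with marked spots kept. The intervals of both Myh3 probes lie below 0 for HV minus EV and above 0 for HS minus HV before adjustment. For ES minus EV that of Myh3 A_51_P167668 also lies below 0, and that of A_52_P247953 includes 0. Those of Myh7, Myh1 and Myh2 include 0 in all 4 panels.

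Other genes of the myosin programme were read from fixed lists. Among slow-fibre genes, 0 of 12 fitted members were called in any comparison, beside 0% to 1.28% of all genes. In HS minus HV 7 were higher and 5 lower, with a median of 0.14 beside 0.04 for all genes, and in ES minus EV 3 were higher and 9 lower, with a median of -0.40 beside 0.01. Over both injections the smallest p in that list belonged to Myl6b (0.15 ± 0.10, SE, adjusted p = 0.598) and Tnnc1 (-0.61 ± 0.41, adjusted p = 0.612, limma). Of the 11 fast-fibre genes fitted, 6 were saturated on all arrays and 4 on some. The only list member left, Casq1, the calcium buffer of fast fibres, differed by -10.03 ± 0.59 between HS and ES, HS minus ES (SE, limma adjusted p = 1.01e-06) on a spot in the outer rows of the array, where 5.71% to 9.81% of spots on HS arrays were more than 3 log2 units low against 0.0554% to 2.05% on the others. Without edge spots Casq1 had no value. Eno3, the muscle enolase, was saturated on all 20 arrays and is given no difference.

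Of 14 fitted genes of developing and regenerating fibres, 1 was called over both injections and 1 for HS minus HV. Of all genes, 1.09% and 1.28% were called in these comparisons. Chrng, the fetal subunit of the acetylcholine receptor, rose with the vector over both injections by 0.85 ± 0.20 (SE, limma adjusted p = 0.0463, 0.0587 without edge spots). With the animal as a block it was also called for HS minus ES alone (1.00 ± 0.28, SE, limma adjusted p = 0.103 without and 0.0395 with the block). The fit with that block called 257 of 15725 genes for HS minus ES. Chrng was near background, between -3.22 and -2.14 in HS, between -4.10 and -2.34 in HV, between -3.92 and -3.44 in ES and between -4.46 and -3.52 in EV. Myl10, a regulatory myosin light chain, rose in HS over HV by 1.90 ± 0.41 (SE, limma adjusted p = 0.0238), with HS between 0.06 and 0.89. Of its 5 HV legs, HV4 had -1.79 and HV5 -1.83, HV2 lay lower still, and the highest had 0.06. Like Myh3, Myl10 had a negative difference for HV minus EV, -1.66 ± 0.41 (SE, adjusted p = 0.657, limma), and its call for HS minus HV was lost without the spots of a wider edge zone (adjusted p = 0.0923). Cdh15, a cadherin of satellite cells and young fibres, was 0.51 ± 0.13 higher with the vector over both injections (SE, limma adjusted p = 0.0639), and was called with the animal as a block (adjusted p = 0.0466). The fit with that block called 283 of 15725 genes over both injections. Of 14 fitted members of the list, 4 were higher and 10 lower in that comparison, with a median of -0.21 beside 0.02 for all genes.

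Regulators of the myosin genes and partners of the thick filament gave no call in any comparison, beside 0% to 1.28% of all genes. Of 27 fitted regulators, 17 were higher and 10 lower with the vector over both injections, with a median of 0.06. For that contrast Hdac9, a class IIa deacetylase, had a difference of -0.46 ± 0.14 and Mef2a, a MEF2 factor, of 0.38 ± 0.13 (SE, limma adjusted p = 0.135 and 0.178). Of 11 thick filament partners, 5 were higher and 6 lower. Mybpc1, the slow myosin-binding protein C, had -0.53 ± 0.15 and Myom2, an M-band protein of fast fibres, -0.48 ± 0.20 (SE, limma adjusted p = 0.0853 and 0.329). Among 5 fitted other heavy chains, Myh14, a non-muscle myosin, was 0.22 ± 0.12 higher over both injections (SE, limma adjusted p = 0.510), and Myh13, of extraocular muscle, was not fitted.

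Class IIa deacetylases bind MEF2 factors, and the promoters of the cluster were searched for the MEF2 motif after the values had been seen. In RefSeq promoters of build GRCm38.p6, over the 250 bases before the start and on both strands, the MEF2 consensus was found in 959 of 32851 promoters (2.92%) and in those of Myh1, Myh4 and Myh8. All 3 held the same letters, TTATTTATAG, which 37 promoters (0.113%) contain, in capitals here within 30 bases of the plus strand. They are shown because the 3 genes of the cluster hold the same letters.
Myh1, chr11:67199881-67199910: acaactcaaaTTATTTATAGgagattgatt
Myh4, chr11:67237620-67237649: ccctgtcaaaTTATTTATAGatgacaagaa
Myh8, chr11:67277015-67277044: ccttgtcaaaTTATTTATAGgagattggtt
The windows of Myh2, Myh3 and Myh7 held no match, which says only that these letters are not in them.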

How the data were processed

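Per the labels' protocols, 100 ng of RNA was labelled with Cy3. Per the file headers, Feature Extraction 9.5.1.1 (protocol GE1-v5_95_Feb07) wrote a background-subtracted processed intensity for each spot, and these intensity values were deposited for 20 arrays. The deposited series matrix holds a ratio, found here to be that intensity over 1 constant per array, for 23678 probes, among them 7 of the 16 myosin probes and none of Myh4 or Myh8. No build is given for probe positions, so none is printed.

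The log2 of the intensity was taken and each array's 75th percentile (248.4 to 608.1) subtracted. The share of spots well above background was 51.7% to 61.3% per array. Spots marked non-uniform or as outliers were left out. Probes well above background on at least 5 arrays, with 3 arrays left in each group, were kept (23609, of which 9 myosin probes), and the brightest stood for its gene (15725 genes). The group means of each gene entered a two-sided limma fit (version 3.58.1, R version 4.3.3), adjusted by Benjamini-Hochberg across every gene fitted, at a threshold of 0.05. Each adjusted p is from limma. The script was tested on simulated data.

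The replicate number is the slide and the scan. A group's place on the slide never changed, and effects of place cannot be told apart from those of group. The dnHDAC4/5 leg was always the right one, so effects of leg side cannot be told apart from those of vector. Legs of an animal are paired by its identifier (r of their deviations from the group means 0.03 to 0.41), and the main fit has no block. Named were all members, the 5 genes most like each in Pearson r (at least 18 arrays), list genes that were called, and 2 per list of smallest p for the vector over both injections. Others named as examples were chosen after their values were seen. The members and lists were chosen with earlier results of these data known. Replicates of a group are different animals by these identifiers.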

Additional observations from a re-analysis of the deposited data

Results flagged for a closer look

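Single legs stood out for Myh7 and for no other member in the test for 1 value far from the others of its group (the gap to the nearest leg over the range of the group, against Dixon's critical value of 0.71 for 5 samples). With probe A_52_P88033, HS2 had a level of 4.78, and the nearest HS leg had 1.49, a gap of 0.74 of the range. ES4 had 3.86, and the nearest ES leg had 0.96, a gap of 0.75 of the range. With the second Myh7 probe, A_51_P143162, neither leg was marked: HS2 had 2.57 and the nearest leg 0.47, and ES4 had 0.41 and the nearest leg -0.18. Of 23 groups of member values tested, 2 were marked in this way, and chance marks about 1 in 20. On HS2 the summed slow-fibre level was 45.2 against 15.1 to 27.2 on the other HS arrays, and on ES4 it was 24.1 against 16.5 to 23.3 on the other ES arrays. HS2 also had a summed red blood cell marker level of 16.9 against 1.06 to 2.09 on the other HS arrays, a tendon and fibroblast level of 168 against 25.6 to 50.02, and an adipocyte level of 175 against 7.33 to 129. Their part in the Myh7 values was not tested.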

How the results depend on the processing

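The alternatives were 34 for each count of myosin heavy chains called, of which the wider edge zone (20 rows and 6 columns), a fit of every probe with marked spots kept and the second probes were added after seeing the data. The count for Scriptaid in dnHDAC4/5 legs, 1 as reported, was 0 without edge spots, without spots of the wider zone, with normexp background correction, with no filter on dim probes, with the mean of all probes of a gene and with the deposited matrix values, and 0 to 1 when each array was left out in turn. It remained 1 in 13 settings, among them the replicate block (adjusted p = 0.0464). Myh3 stayed higher in HS in all 35 settings, by 0.70 to 1.27, with an adjusted p between 0.0185 and 0.410. The count for the interaction, 0 as reported, was 1 with the slide as a random block, with normexp and with the array median in place of the percentile, and 0 to 1 when arrays were left out. The interaction of Myh3 ran from 1.44 to 1.93, with an adjusted p between 0.0169 and 1.00. The other 4 counts were 0 in every setting, and the difference of Myh3 for HV minus EV ran from -1.59 to -1.15. When each array was left out, Myh7 ran from -0.23 to 1.24 for HS minus ES and from -0.41 to 0.74 for HS minus HV. Its sign also turned for HS minus HV without HV1 (-0.03) and without HV5 (-0.03). The wider zone holds the Myh7 probe, so Myh7 has no value there. The replicate block changed no call of a myosin heavy chain, and of the list genes named it added Cdh15 over both injections and Chrng for HS minus ES. Over all genes, calls for HS minus HV numbered 202 as reported, 80 without edge spots and 18 without the wider zone, and for HS minus ES 195, 60 and 5. Calls over both injections numbered 172, 88 and 76, and for the interaction 28, 0 and 0. The cause of these changes was not tested, beyond the fewer genes fitted without edge spots (15048 and 13962). Saturation limits what can be read of 4 of the 6 genes.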
